A study of Homo sapiens with 12 samples.

Results

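The DDX and DHX genes carry the symbols of the DEAD-box and DEAH-box helicase families. They were chosen by symbol alone, as every gene called DDX or DHX followed by its number (and, for DDX, at most 1 letter), without DDX3Y. DDX26B is also listed as INTS6L, and whether each gene encodes a helicase was not tested. The rule found 56 of the 26334 gene symbols counted, 40 of them DDX and 16 DHX genes. The RNA came from A673, a long-established cell line of Ewing sarcoma that the labels call shA673-1c, after 0, 1, 2 or 4 h in 5 µM actinomycin D, with 3 biological replicates at each time and so 12 libraries. All cultures, those at 0 h included, grew in medium with blasticidin and zeocyn (spelled as in the labels), and the labels do not give the target of the shRNA that the name implies or say whether it was switched on. The only control is the culture at 0 h. The comparison across time asks how long each transcript lasts once transcription is blocked, since actinomycin D binds DNA and stops RNA polymerases.

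DEAD-box and DEAH-box proteins use ATP to open short RNA duplexes or to move proteins off RNA. They act at nearly every step of an RNA's life: splicing, export from the nucleus, ribosome assembly, translation, decay and the sensing of viral RNA. DEAD-box proteins mostly pry duplexes apart locally, and DEAH-box proteins mostly travel along a strand. Ewing sarcoma cells carry a fusion of EWSR1 with an ETS gene, and DHX9 is a known partner of that fusion protein.

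Total counts per library ranged from 9147018 to 11194705, and levels are given in CPM, counts scaled to a common library size by the TMM method. Markers of Ewing sarcoma were counted in every library (NR0B1 69 to 451, NKX2-2 7 to 87, STEAP1 499 to 708, LIPI 1045 to 1622, PRKCB 1015 to 1789), although CD99 was listed at 0 throughout. The endothelial markers PECAM1, CDH5, VWF and KDR had at most 6 counts, and the leukocyte markers PTPRC, CD3E and CD14 at most 9. Of the fibroblast markers, DCN had 4 to 13 counts and LUM 1 to 8, while COL3A1 had 8075 to 12271. In such bulk samples, fewer cells and less RNA per cell cannot be told apart.

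The count filter, an average of 10 or more counts across the libraries, was passed by 50 of the 56 genes, 35 DDX and 15 DHX. DDX25, DDX43 and DDX53 had no count in any library, which allows up to 3 counts per library. DDX4, a germ cell helicase, had 0 or 1 count, and DHX58, which encodes the RIG-I-like receptor LGP2, had 0 to 3. DDX39B, an mRNA export helicase that nearly all cells use, had only 1 to 5 counts (mean 2.25). EIF4A1, the founding DEAD-box translation factor and likewise used by nearly all cells, was listed at 0. Genes that every cell uses standing at or near 0 can mean a failed count, which was not tested, and no level is drawn from these values.

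The families are named for motif II of the protein, the 4 residues D-E-A-D or D-E-A-H that hold magnesium and help to split ATP. In-frame codons for D-E-A-D were found in 30 of the 39 DDX coding sequences, and codons for D-E-A-H in 8 of the 16 DHX coding sequences (GENCODE 44, Ensembl canonical transcripts). Over all 20087 coding sequences, 0.996% held the first and 0.393% the second. The stretches below show the motif in genes that the results turn on. They give 30 coding bases on the coding strand, with the motif II codons in capitals.
DDX28: ttggtgttgGATGAGGCAGACacactgctg
DDX20: tttattcttGATGAAGCAGATaagctttta
DDX5: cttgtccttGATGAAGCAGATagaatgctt
DDX17: cttgtattgGACGAAGCTGACagaatgctt
DDX19A: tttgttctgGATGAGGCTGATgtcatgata
DDX19B: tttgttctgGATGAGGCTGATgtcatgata
DDX11: gtgatcatcGACGAGGCGCACaacctgatc
DHX38: atcatcatgGACGAGGCCCACgagcgctcc
DDX19A and DDX19B, neighbouring genes, had the same letters over this stretch. DDX11 carries a DDX symbol but was the 1 DDX gene with D-E-A-H codons, as DHX38 has. DDX11 is a DNA helicase. DHX29 was the 1 DHX gene with D-E-A-D codons, in a stretch at bases 3346 to 3375 of a coding sequence of 4107. Whether each match of codons is motif II was not tested. In another 8 DDX and 7 DHX genes these exact codons were absent, which says only that the letters are not there.

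Levels of different genes were compared as CPM per kb of canonical transcript at 0 h. The highest was DDX5, a coregulator of transcription and splicing, at 232.5 ± 13.1 CPM per kb (SD, n = 3), followed by DDX3X, a translation factor, at 218.5 ± 21.2. These neighbours in the order did not differ beyond their spread. DHX9 (157.4 ± 4.87) and the nucleolar DDX21 (150.4 ± 13.5) came next and also lay within their spread of each other. The innate immune genes were lowest, with DDX60 at 0.27, DDX60L at 0.81 and DDX58, which encodes RIG-I, at 2.08 CPM per kb. Summed over all members, the level was 7795 ± 220 CPM at 0 h and 7693 ± 382 CPM at 4 h (SD, n = 3), a difference smaller than the spread between replicates.

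Over the 4 h, 19 of the 50 tested genes fell relative to the other transcripts, 13 rose and 18 passed in neither direction, and scaling to GAPDH plus ACTB in place of all genes left 41 falling and 1 rising. A gene was called when the slope of its log2 level against time, fitted with edgeR's quasi-likelihood test after TMM scaling, had an adjusted p below 0.05 over all 12032 genes tested. Of all tested genes, 32.1% fell and 30.7% rose, against 38.0% and 26.0% of the members, so the shares lay near the background. Under GAPDH plus ACTB these backgrounds were 64.2% and 0.931%. Each of the 19 genes fell, and each of the 13 rose, in 3 of 3 replicates fitted alone. The calls rest on these same libraries, so this is a description and not added support. Genes that were not called did the same, with DHX35 and DHX30 falling and DHX15 and DDX5 rising in 3 of 3. With the replicate number as a block in the fit, 22 fell and 16 rose (34.8% and 36.2% of all genes). With library totals alone as the scale, 24 members fell and 8 rose (39.1% and 18.7% of all genes).

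A rise here is relative to the other transcripts, as TMM scaling sets it, and no measure of RNA per cell was used. With library totals, which give the share of all counts, all 13 rising members had slopes above 0. On that scale 8 members were called as rising, 0 of them DHX genes. After TMM scaling GAPDH went from 6001 ± 210 CPM at 0 h to 9032 ± 521 CPM at 4 h (SD, n = 3). ACTB went from 4983 ± 475 to 7055 ± 886 CPM. Scaling to GAPDH plus ACTB holds their summed counts constant, so slopes and half-lives under it are relative too. It lowered the median slope of all genes by 0.14 log2 units per hour, to -0.13. Under it, all 19 falling members still fell, while 11 of the 13 rising members had slopes below 0 and 6 of those fell past the threshold. DDX12P still rose (0.12, edgeR adjusted p = 0.0133), and DDX11 had a slope of 0.0081.

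**Figure D1:**
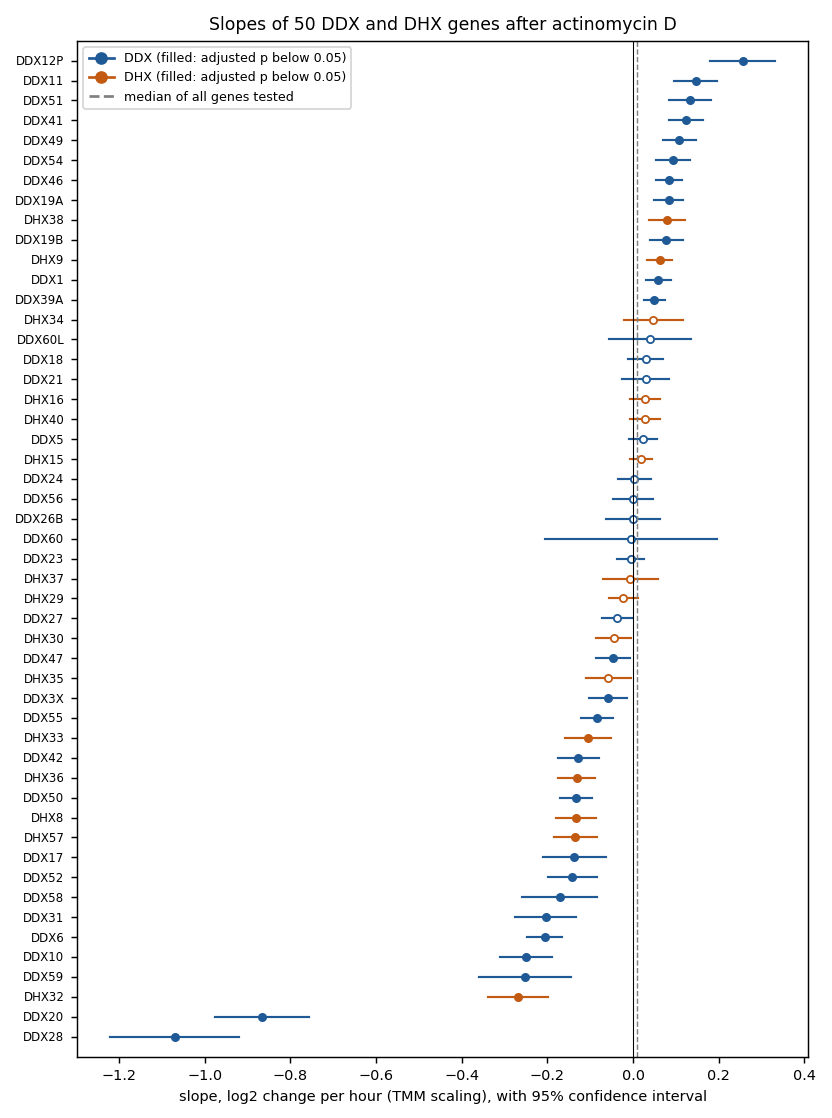
Slopes of the 50 tested genes over 0 to 4 h in log2 units per hour after TMM scaling, with 95% confidence intervals, coloured by family, filled where the adjusted p was below 0.05, and a dashed line at the median of all genes tested. DDX28 and DDX20 lie far to the low side at -1.07 and -0.87, and the other members lie between -0.27 and 0.26; with GAPDH plus ACTB scaling DDX12P is the 1 gene that rises.

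The DDX and DHX families were set side by side. Of 35 DDX genes, 14 fell, 11 rose and 10 passed in neither direction, and of 15 DHX genes, 5 fell, 2 rose and 8 passed in neither direction. The median slope was -0.00012 log2 units per hour for DDX genes and -0.023 for DHX genes, beside 0.0093 for all genes tested. The DHX median was below the DDX median by 0.033, 0.025 and 0.016 in replicates 1, 2 and 3. Without the 4 h libraries the order turned, with medians of 0.013 for DHX and 0.011 for DDX genes, and genes of a family are not replicates, so no test was made. DDX slopes ran from -1.07 to 0.26 and DHX slopes from -0.27 to 0.080. A range widens with the number of genes, and DDX28 and DDX12P alone set the ends of the DDX range. The middle quartiles ran from -0.14 to 0.068 for DDX genes and from -0.12 to 0.028 for DHX genes. Summed levels went from 5721 ± 165 to 5586 ± 272 CPM for DDX and from 2074 ± 55.7 to 2107 ± 111 CPM for DHX genes between 0 and 4 h (SD, n = 3), which is within the spread.

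DDX28 fell most steeply of all members. It encodes a helicase that helps to assemble the large ribosomal subunit in mitochondria, and it lies at chr16:68020916-68023232 on the minus strand (GRCh38), in a single exon. Its level was 15.9, 17.9 and 16.9 CPM in replicates 1, 2 and 3 at 0 h, 11.2, 11.3 and 8.16 CPM at 1 h, 3.18, 2.73 and 2.80 CPM at 2 h, and 1.42, 0.97 and 0.90 CPM at 4 h. No 2 time points overlapped, and the values at 4 h rest on 8 to 12 counts a library. The slope was -1.07 log2 units per hour (SE 0.071, edgeR adjusted p = 4.94e-09), which equals a half-life of 0.934 h (95% confidence interval 0.819 to 1.09). Half-lives here are relative to the other transcripts, as TMM scaling sets them, and GAPDH plus ACTB scaling makes that of DDX28 0.832 h. Against 0 h, 60.4% was left at 1 h, 17.2% at 2 h and 6.48% at 4 h. Counted from the lowest slope, it ranked 39 among the 12032 genes tested.

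DDX20 was next. It encodes gemin3, a part of the SMN complex that loads Sm proteins onto spliceosomal RNAs, and lies at chr1:111754832-111775602 on the plus strand (GRCh38). At 0 h it stood at 59.3, 61.8 and 54.0 CPM, at 1 h at 45.7, 46.7 and 41.3 CPM, at 2 h at 17.7, 23.2 and 16.9 CPM, and at 4 h at 7.10, 5.32 and 4.37 CPM. Here too no times overlapped. The slope was -0.87 (SE 0.052, edgeR adjusted p = 2.09e-09) and the half-life 1.16 h (1.03 to 1.32, and 0.994 h with GAPDH plus ACTB scaling). Against 0 h, 76.4% was left at 1 h, 33.0% at 2 h and 9.58% at 4 h. Both genes fell fastest between 1 and 2 h, with a log2 change of -1.81 (SE 0.17) for DDX28 and -1.21 (SE 0.13) for DDX20. A half-life from the slope assumes a straight line in time. With the replicate block both genes departed from one (edgeR adjusted p = 0.00465 for DDX28 and 1.93e-05 for DDX20), though not in the main fit.

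Both transcripts hold the AU-rich pentamer ATTTA in the 3′ UTR, a motif known from short-lived mRNAs. DDX28 has 2, close enough that their windows overlap, and DDX20 has 6, of which 3 are shown. The pentamer is in capitals, with 10 bases on either side.
DDX28: tgatgttttcATTTAtaaacattta
DDX28: atttataaacATTTAgtttgtattt
DDX20: gattgttttgATTTAggccaggtat
DDX20: caaaagaaacATTTAaaaagatgac
DDX20: aggaaggaatATTTAaacattgctt
The pentamer is common: it stands in 67.8% of the 19371 annotated 3′ UTRs. Members rich in it went in different directions. DDX52 has 11 and DHX36 has 10, and both fell, while DDX46 has 10 and rose. DDX21 has 11 and DDX5 has 10, genes not called in the slope fit and called as rising with the replicate block.

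**Figure D2:**
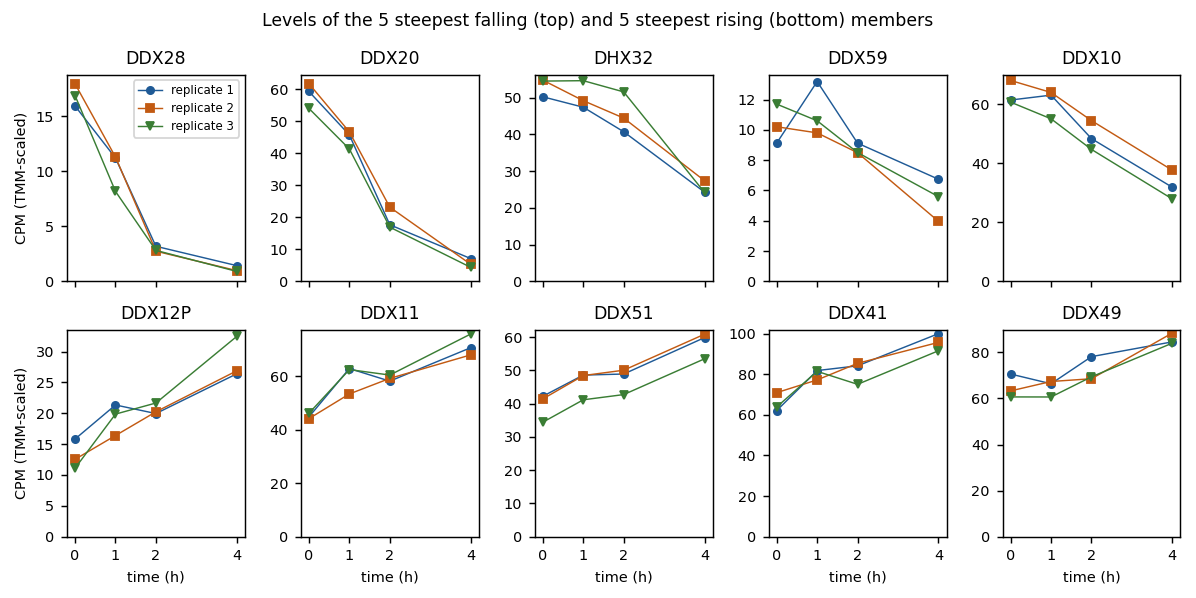
Level of the 10 members with the steepest called slopes in each library against hours of actinomycin D, on linear axes of TMM-scaled CPM that start at 0 and differ between genes, with a line and marker for each replicate. DDX28 and DDX20 end at 6.48% and 9.58% of their 0 h level, while DDX12P ends at 217%, and the rise of members other than DDX12P is not called with GAPDH plus ACTB scaling.

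After these came 3 genes with half-lives near 4 h after TMM scaling, which GAPDH plus ACTB scaling shortened to 2.45 h for DHX32, 2.55 h for DDX59 and 2.57 h for DDX10. DHX32, a DHX gene whose role is not assigned here (chr10:125836337-125896436, minus strand), stood at 50.2, 54.7 and 54.5 CPM at 0 h, 47.4, 49.1 and 54.6 at 1 h, 40.7, 44.4 and 51.5 at 2 h and 24.3, 27.4 and 24.2 at 4 h. The 4 h libraries lay below all others. Its slope was -0.27 (SE 0.033, edgeR adjusted p = 2.66e-06) and its half-life 3.73 h (2.96 to 5.04). DDX59 (chr1:200623896-200669907, minus strand) stood at 9.13, 10.2 and 11.7 CPM at 0 h, 13.2, 9.81 and 10.6 at 1 h, 9.13, 8.50 and 8.51 at 2 h and 6.75, 3.96 and 5.60 at 4 h. The 4 h libraries lay below all others, and the highest 2 h library and the lowest 0 h library were both at 9.13 CPM. Its slope was -0.25 (SE 0.051, edgeR adjusted p = 0.000381). DDX10, a helicase of the small ribosomal subunit pathway (chr11:108665058-108940999, plus strand), stood at 61.4, 68.0 and 60.7 CPM at 0 h, 63.0, 64.0 and 55.0 at 1 h, 48.3, 54.4 and 44.7 at 2 h and 31.8, 37.6 and 27.9 at 4 h. The times 0 and 1 h overlapped and the later ones did not. The slope of DDX10 was -0.25 (SE 0.028, edgeR adjusted p = 1.13e-06), with a half-life of 3.99 h. With the replicate block DHX32 and DDX10 departed from the straight line that a half-life assumes (edgeR adjusted p = 0.000673 and 0.0319). All other falling members had longer half-lives, up to 21.7 h for DDX47 after TMM scaling and 5.42 h for the same gene with GAPDH plus ACTB. Over the 19 falling members, that scaling made the half-life 1.12 to 4.00 times shorter.

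The steepest rises were those of DDX12P and DDX11. DDX11, at chr12:31073860-31104799, encodes a DNA helicase of sister chromatid cohesion, and DDX12P, at chr12:9418673-9448229, is its pseudogene. DDX12P stood at 15.8, 12.5 and 11.1 CPM at 0 h, 21.3, 16.4 and 19.9 at 1 h, 19.9, 20.2 and 21.7 at 2 h and 26.4, 26.9 and 32.5 at 4 h. Every later library lay above every 0 h library. The slope was 0.26 (SE 0.036, edgeR adjusted p = 1.10e-05), and the 4 h level was 217% of that at 0 h. DDX11 stood at 44.8, 44.1 and 46.1 CPM at 0 h, 62.9, 53.4 and 62.5 at 1 h, 58.1, 59.2 and 60.4 at 2 h and 70.6, 68.0 and 75.8 at 4 h. Its 1 and 2 h groups overlapped, and 0 and 4 h stood apart. The slope of DDX11 was 0.15 (SE 0.023, edgeR adjusted p = 4.11e-05), and 0.0081 with GAPDH plus ACTB scaling. The genes are near copies, and the handling of reads that match both is not given in the sources used here, so the level of each is uncertain.

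DDX51, DDX41 and DDX49 also rose, although with GAPDH plus ACTB scaling their slopes were -0.0051, -0.015 and -0.029 and none was called. DDX51, a helicase of the large ribosomal subunit pathway (chr12:132136594-132144319, minus strand), stood at 42.2, 41.4 and 34.4 CPM at 0 h, 48.6, 48.5 and 41.2 at 1 h, 48.9, 50.1 and 42.7 at 2 h and 59.9, 60.9 and 53.5 at 4 h. Replicate 3 was the lowest at every time, and 0 and 4 h did not overlap. The slope was 0.13 (SE 0.023, edgeR adjusted p = 0.000114). DDX41, found in the spliceosome and also described as a sensor of DNA (chr5:177511577-177516961, minus strand), stood at 62.2, 71.0 and 64.0 CPM at 0 h, 81.9, 77.3 and 81.5 at 1 h, 84.2, 85.5 and 75.1 at 2 h and 100.1, 95.8 and 91.7 at 4 h. All later libraries lay above those of 0 h. The slope of DDX41 was 0.12 (SE 0.019, edgeR adjusted p = 3.24e-05). DDX49, a nucleolar helicase (chr19:18919705-18929189, plus strand), stood at 70.6, 63.3 and 60.7 CPM at 0 h, 66.4, 67.4 and 60.7 at 1 h, 78.2, 68.6 and 69.4 at 2 h and 84.6, 88.5 and 84.1 at 4 h. Only the 4 h group was apart from all others. The slope of DDX49 was 0.11 (SE 0.018, edgeR adjusted p = 8.08e-05).

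The members were then grouped by the step of RNA metabolism in which their proteins are known to act. Every group stands beside 32.1% falling and 30.7% rising among all tested genes, and counts in such small groups are descriptions. Of 16 tested genes of ribosome biogenesis and the nucleolus, 7 fell, 3 rose and 6 passed in neither direction, with a median slope of -0.022. Beside DDX10 the genes that fell were DDX31 (-0.20), DDX52 (-0.14), DDX50 (-0.13), DHX33 (-0.11), DDX55 (-0.084) and DDX47 (-0.046). DDX47 was near the threshold (edgeR adjusted p = 0.0424), and its p was 0.0599, 0.132 and 0.0564 without replicate 1, 2 or 3. DDX51, DDX49 and DDX54 (0.092) rose. DDX18 (0.030), DDX21 (0.030), DDX24 (0.0028), DDX27 (-0.037), DDX56 and DHX37 (-0.0067) did not pass, though with the replicate number as a block DDX18 (edgeR adjusted p = 0.0189) and DDX21 (0.0134) rose and DDX27 (0.0072) fell.

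Spliceosomal helicases, which drive the rearrangements of the splicing cycle, moved in both directions. Of 9 tested, 2 fell, 3 rose and 4 passed in neither direction, with a median of 0.019. DHX8, which releases the spliced mRNA, had a slope of -0.13 (edgeR adjusted p = 5.55e-05), and DDX42, of the U2 particle, -0.13 (0.000125). Beside DDX41, the branch site helicase DDX46 (0.084) and DHX38 (0.080), the human PRP16, rose. With GAPDH plus ACTB scaling DDX46 had a slope of -0.054 and DHX38 one of -0.059. DDX23 (-0.0055), DHX15 (0.019), DHX16 (0.029) and DHX35 (-0.058, edgeR adjusted p = 0.0513) did not pass, and with the replicate block DHX35 fell (0.0247).

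All 3 tested genes of mRNA export rose, as did 30.7% of all tested genes, and all 3 slopes lay below 0 with GAPDH plus ACTB scaling. DDX19A and DDX19B are close paralogs, and the handling of reads that match both is not given in the sources used here. DDX19A had a slope of 0.083 (edgeR adjusted p = 0.000208), DDX19B 0.077 (0.0014) and DDX39A 0.050 (0.00176), and under that other scaling they had -0.055, -0.060 and -0.088. DDX19 proteins act at the cytoplasmic face of the nuclear pore, and DDX39A loads export factors onto mRNA. The fourth gene of this group, DDX39B, was below the count filter.

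Of 5 genes of cytoplasmic translation and mRNA decay, 3 fell and 2 did not pass, with a median of -0.059. DDX6, which represses translation in P-bodies and helps to activate decapping, had a slope of -0.21 (SE 0.020, edgeR adjusted p = 1.59e-07) and a half-life of 4.84 h, or 2.90 h with GAPDH plus ACTB scaling. DHX36, which unwinds G-quadruplexes, had a slope of -0.13 (edgeR adjusted p = 3.92e-05). DDX3X had a slope of -0.059 (edgeR adjusted p = 0.0242), with p of 0.0881 without replicate 1 and 0.128 without replicate 2. DHX29 (-0.023) and DHX34 (0.047), a factor of nonsense-mediated decay, did not pass.

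The remaining groups were small, apart from the members with no role assigned. Among coregulators of transcription and splicing DDX17 fell (-0.14, edgeR adjusted p = 0.00258), DHX9 rose (0.062, and -0.076 with GAPDH plus ACTB scaling) and DDX5 did not pass (0.023), though it rose with the replicate block (edgeR adjusted p = 0.0103). Of the innate immune sensors DDX58 fell (-0.17, edgeR adjusted p = 0.00178), while DDX60 (-0.0051) and DDX60L (0.039) did not pass. DDX1, of the tRNA ligase complex, rose (0.059, and -0.079 with GAPDH plus ACTB scaling). DHX30, which acts in mitochondrial RNA granules like DDX28, had a slope of -0.045 (edgeR adjusted p = 0.0538), and fell with the replicate block (0.0160). Of the members with no role assigned here, DHX57 also fell (-0.13), and DDX26B and DHX40 (0.028) did not pass.

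**Figure D3:**
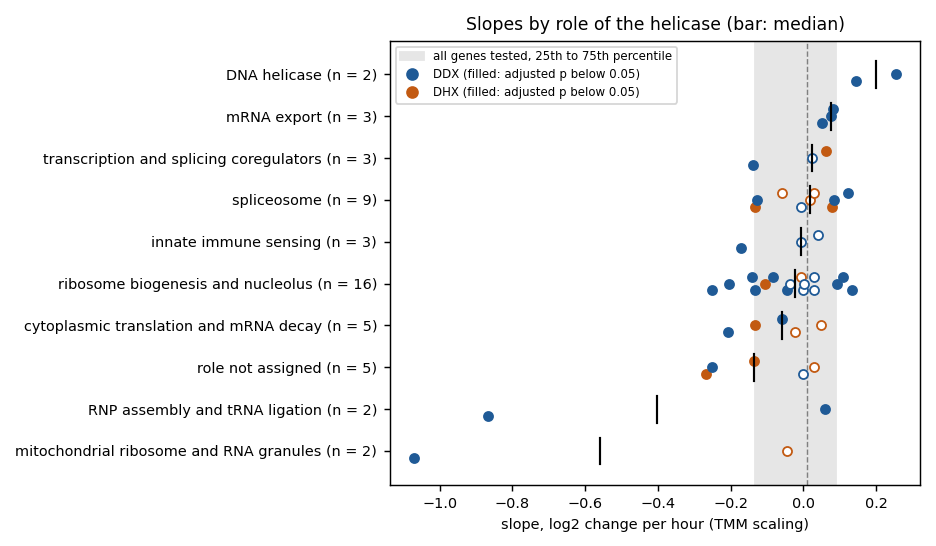
Slopes of the tested members in log2 units per hour, grouped by the step of RNA metabolism, with 1 point per gene and a bar at each group's median; filled points passed the threshold, and the grey band spans the middle quartiles of all genes tested. The 3 mRNA export genes lie between 0.050 and 0.083, and ribosome biogenesis genes spread from -0.25 to 0.13; with GAPDH plus ACTB scaling the export genes lie below 0.

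Close paralogs were compared within each library, since the ratio of 2 genes does not depend on the scaling. DDX5 and DDX17 encode near twins, p68 and p72. DDX5 stood at 822.4, 835.8 and 911.8 CPM at 0 h and 907.5, 881.3 and 965.7 CPM at 4 h. DDX17 stood at 232.2, 219.5 and 300.5 CPM at 0 h and 174.3, 155.6 and 191.2 CPM at 4 h. Replicate 3 was the highest for both genes at both times. At 1 h DDX5 was at 869.3, 839.1 and 934.8 and DDX17 at 221.3, 204.2 and 295.0, and at 2 h DDX5 was at 852.7, 831.9 and 940.2 and DDX17 at 196.1, 195.2 and 258.6 CPM. The log2 ratio of DDX5 to DDX17 went from 1.78 ± 0.17 at 0 h to 2.41 ± 0.085 at 4 h (SD, n = 3). It rose by 0.16 per hour, with 0.14, 0.14 and 0.19 in the single replicates (permutation test over the 12 libraries, two-sided, p = 0.00045, adjusted over 5 pairs 0.00122).

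DDX21 and DDX50 are neighbours on chromosome 10 and encode nucleolar helicases of 1 type. DDX21 stood at 719.9, 753.0 and 631.2 CPM at 0 h, 703.4, 765.5 and 597.2 at 1 h, 750.4, 823.1 and 657.1 at 2 h and 752.3, 854.4 and 643.1 at 4 h. DDX50 stood at 69.7, 65.5 and 68.7 CPM at 0 h, 58.7, 64.3 and 63.2 at 1 h, 63.6, 57.8 and 59.0 at 2 h and 46.5, 48.3 and 44.7 at 4 h. DDX21 overlapped between times and DDX50 was lowest in the 4 h libraries. Their log2 ratio went from 3.36 ± 0.16 to 4.00 ± 0.15 (SD, n = 3), rising by 0.15, 0.16 and 0.17 per hour in the replicates (permutation test, two-sided, p = 0.00049, adjusted 0.00122).

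The ratio of DDX19A to DDX19B did not pass, and how reads that match both genes were counted is not known. DDX19A stood at 76.6, 81.6 and 80.7 CPM at 0 h, 86.8, 83.6 and 77.2 at 1 h, 88.9, 90.1 and 81.2 at 2 h and 100.1, 104.4 and 94.7 at 4 h. DDX19B stood at 27.8, 28.2 and 28.7 CPM at 0 h, 28.7, 29.5 and 30.7 at 1 h, 28.8, 33.1 and 30.9 at 2 h and 33.7, 36.2 and 35.1 at 4 h. Both genes were highest in the 4 h libraries. The log2 ratio was 1.49 ± 0.035 at 0 h and 1.51 ± 0.072 at 4 h (SD, n = 3; slope 0.0054 per hour, permutation test, two-sided, adjusted p = 0.760).

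DDX11 and DDX12P differed in slope, but they are near copies, and how reads that match both were counted is not known. Their log2 ratio went from 1.79 ± 0.28 to 1.33 ± 0.099 (SD, n = 3), a slope of -0.11 per hour (permutation test, two-sided, p = 0.00103, adjusted 0.00172). The replicates were uneven, at -0.024, -0.12 and -0.20, and without replicate 3 the slope was -0.072 (exact permutation test, adjusted p = 0.0430). DDX60 had 9 to 29 counts a library, and DDX60L 41 to 67. The log2 ratio of DDX60 to DDX60L ranged from -2.62 to -0.88, with groups that overlapped (permutation test, two-sided, adjusted p = 0.760).

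**Figure D4:**
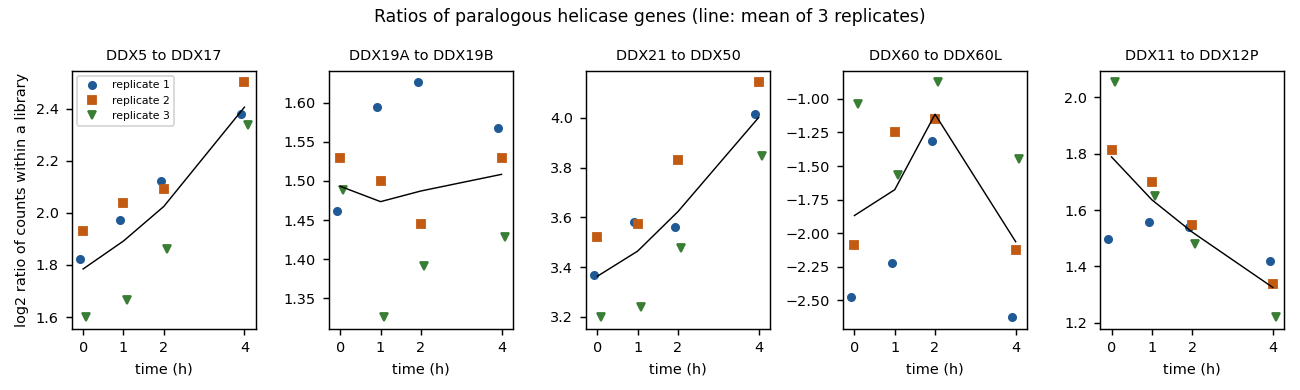
Log2 ratio of the counts of paired paralogs in each of the 12 libraries against hours of actinomycin D, with 1 point per replicate and a line through the means, on axes that differ between pairs and do not start at 0. The ratios of DDX5 to DDX17 and of DDX21 to DDX50 end at 2.41 and 4.00, above their 0 h values of 1.78 and 3.36, while that of DDX19A to DDX19B starts at 1.49 and ends at 1.51.

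More members were called between 2 and 4 h, the longest step, than in the steps before it. Between 0 and 1 h, 1 member fell (DDX28, 2.24% of all genes fell) and 2 rose (DDX11 and DDX41, 0.349% of all genes rose), of which none was called when any 1 replicate was left out. Same-numbered libraries deviated together, and with the replicate number as a block 3 members fell (DDX28, DDX20 and DDX3X) and 6 rose (DDX11, DDX12P, DDX41, DDX51, DDX54 and DHX38), against 10.5% and 6.18% of all genes. Between 1 and 2 h, DDX28 and DDX20 fell and 0 rose (12.5% and 3.76% of all genes), and 6 members had an unadjusted p below 0.05 in edgeR. With the block 9 fell and 5 rose (20.7% and 17% of all genes).

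Between 2 and 4 h, 14 members fell and 6 rose (18.3% and 12% of all genes), 5 of the falling ones DHX genes. Their number was 20 in all, and 13, 10 and 15 without replicate 1, 2 and 3. With the block 20 fell and 15 rose (25.3% of all genes in each direction). Comparing 4 h with 0 h directly, 18 members were lower and 13 higher (31.6% and 28.7% of all genes), and with the block 23 and 19 (36% and 36.8%). Among the 19 members with a falling slope, the steepest change per hour was from 2 to 4 h in 11. It was from 1 to 2 h in 5 and from 0 to 1 h in 3. The median rates of these steps, in order of time, were -0.063, -0.14 and -0.19 log2 units per hour. These genes were chosen by a slope on which the 4 h libraries weigh most. Rates of all falling genes are not given here, so this order is not read as a trait of the members. No member departed from a straight line in time by edgeR's test (2.7% of all genes did), and 5 had an unadjusted p below 0.05. With the replicate block 11 departed (17.2% of all genes), among them DDX28, DDX20, DHX32, DDX10 and DDX6.

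Features of the transcripts were set beside the slopes as a description. The median number of ATTTA pentamers in the 3′ UTR was 2 for the 19 falling genes, 2 for the 18 that passed in neither direction and 1 for the 12 rising genes with a 3′ UTR. Per kb of 3′ UTR the medians were 1.98, 2.27 and 1.24. Across the 49 genes, which share their libraries, pentamers per kb and slope had a Pearson r of -0.079 and a Spearman rho of -0.11. The Pumilio motif TGTANATA stood in 7 of 19 falling, 3 of 18 uncalled and 0 of 12 rising genes, beside 25.6% of all 3′ UTRs. Median 3′ UTR lengths were 1101, 793.5 and 755.5 bases in that order, and a longer 3′ UTR offers more positions for a motif. The Pumilio counts were not set per kb, so no link to slope is drawn from them. DDX28 was the 1 tested member with a single exon, a structure that 5.63% of coding genes have.

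A list of 23 RNA helicases and relatives of other names gave a comparison, of which 19 were tested. Of these, 7 fell, 5 rose and 7 passed in neither direction, with a median slope of -0.0026. The falling and rising shares of 36.8% and 26.3% lay near those of all genes, 32.1% and 30.7%. With GAPDH plus ACTB scaling 14 fell and 0 rose (64.2% and 0.931% of all genes). The translation helicase EIF4A2 had a slope of -0.0026 (edgeR adjusted p = 0.933) and EIF4A3, of the exon junction complex, one of 0.030 (0.0877, and 0.0168 with the replicate block). SNRNP200, the spliceosomal Brr2, rose (0.098, and -0.040 with GAPDH plus ACTB scaling). DDX28 and DDX20 had lower slopes than any of these 19, whose lowest was -0.29.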

How the data were processed

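For each gene symbol, the authors deposited raw read counts of 12 poly(A)-selected, stranded libraries. The submitters' processing notes name FastQC, STAR and the build hg19. The study's methods describe, for reads of this kit in general, Salmon on an Ensembl GRCh38 transcriptome with tximport, another build than the notes give, and do not name the A673 libraries. Which of these made the counts, and the strand setting, are not given in the sources used here, so reads shared by paralogs or overlapping genes may be split in ways not known. Groups and replicate numbers came from the sample labels, and 0 columns were left unmapped. Members and lists were chosen with earlier results of these data known.

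Counts were analysed with edgeR 4.0.16 (glmQLFit and glmQLFTest) in R 4.3.3, after TMM scaling of the 12032 genes that averaged 10 counts or more. Time in hours entered as a number or as 4 groups, without a block, with Benjamini-Hochberg adjustment over all genes tested. CPM used TMM-scaled totals. The common biological coefficient of variation was 0.0905, and replicates of a time differed by more than sampling noise (chi-square per degree of freedom 3.07 to 8.15). Intervals are 95%, and a half-life is -1 divided by the slope, which assumes a straight line of log2 level in time. The script was tested on simulated data. Deviations from the time means correlated among same-numbered libraries (mean r 0.454, 0.323 to 0.633 over 18 pairs). Given that value, subtracting the time means largely fixes the mean r among other libraries (-0.224), which adds no support. The replicate numbers, taken from the labels, thus appear to pair the samples. The main fits and the permutation tests did not use this pairing, and only the fits with the replicate block did. Paralog ratios used a pseudocount of 0.5 counts and 100000 resamples.

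Values in every library are given for the 5 steepest falling and 5 steepest rising called members and for tested paralog pairs (DDX60 and DDX60L by range). Other members are named by role. DDX47, DDX3X and members called in single intervals are named by their calls. Sequences, lengths and coordinates come from GENCODE 44 on GRCh38, which is not the build of the notes. In it 56 of 56 members matched, 2 by another symbol (DDX26B as INTS6L and DDX58 as RIGI). Alternatives were library totals, DESeq2 1.42.0 size factors and Wald test, GAPDH plus ACTB scaling, other filters and pseudocounts, a replicate block, and leaving out a replicate or a time. Figures were drawn with matplotlib 3.10.9.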

Additional observations from a re-analysis of the deposited data

How the results depend on the processing

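Among the results other than single genes, 115 of 146 alternative values stayed within their limits. With GAPDH plus ACTB scaling, 41 members fell and 1 rose by slope, 40 were lower and 1 higher at 4 h than at 0 h, 4 changed between 1 and 2 h and 32 between 2 and 4 h, the median slopes were -0.14 (DDX) and -0.16 (DHX), and 14 other helicases fell and 0 rose. Under it slopes turned negative for DDX1 (-0.079), DDX18 (-0.11), DDX19A (-0.055), DDX19B (-0.060), DDX21 (-0.11), DDX24 (-0.14), DDX39A (-0.088), DDX41 (-0.015), DDX46 (-0.054), DDX49 (-0.029), DDX5 (-0.11), DDX51 (-0.0051), DDX54 (-0.046), DHX15 (-0.12), DHX16 (-0.11), DHX34 (-0.091), DHX38 (-0.059), DHX40 (-0.11), DHX9 (-0.076), EIF4A3 (-0.11) and SNRNP200 (-0.040), and for DDX60L (-0.099), which passed the threshold under neither scaling. With library totals 8 members rose, 2 departed from a line, 4 changed between 1 and 2 h, and the medians were -0.040 (DDX) and -0.062 (DHX). Without a count filter 1 departed. Without 4 h, 4 fell and 5 rose, the DHX median was 0.013, and the ratio slopes were 0.12 (DDX5 to DDX17), 0.13 (DDX21 to DDX50) and -0.13 (DDX11 to DDX12P), each with an adjusted permutation p of 0.144; fewer libraries enter there. With the replicate block 11 departed, 9 changed between 0 and 1 h, 14 between 1 and 2 h and 35 between 2 and 4 h, and among single genes 7 calls were gained and none lost. Without 1 replicate, 17 to 19 members fell, 13 rose, 0 changed between 0 and 1 h and 10 to 15 between 2 and 4 h. Apart from these constructions the causes were not tested. Depth limits DDX28 at 4 h, DDX60 and the 6 members below the filter.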
